A study of Homo sapiens with 12 samples.

Results

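The AP-1 and EGR immediate early genes were followed across the HMC-1 human mast cell sublines in 12 RNA-seq libraries. The 10 genes are FOS, FOSB, FOSL1, FOSL2, JUN, JUNB, JUND, EGR1, EGR2 and EGR3. They were chosen by name, as members of the FOS, JUN and EGR families, and were matched by symbol among 58381 genes. All 10 passed the filter on low counts, so each was tested. HMC-1 is a line from a mast cell leukemia whose receptor tyrosine kinase KIT is active without its ligand, stem cell factor. Of its sublines, HMC-1.1 has V560G-KIT, and HMC-1.2 has D816V-KIT in addition to V560G-KIT. In the HMC-1.3 sublines the V560G variant of HMC-1.2 had been reverted by CRISPR/Cas9, which left D816V-KIT alone on a single allele. Clone 1 and clone 2 of HMC-1.3 are each 1 edited clone, so the edit and the clone cannot be told apart within either of them. HMC-1.1 and HMC-1.2 are separate sublines, and their KIT genotype and their other differences cannot be told apart. All cultures were grown in the same serum-containing medium with no agent added. Each of the 4 groups had 3 libraries. The methods of the study describe replicate wells, so p-values measure the spread between these cultures, which may be technical.

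Immediate early genes are transcribed within minutes of a signal at the cell surface, without new protein synthesis. Downstream of KIT, the RAS and ERK cascade phosphorylates ternary complex factors such as ELK1, which sit with SRF at CArG boxes in the promoters of FOS and EGR genes. FOS family proteins pair with JUN family proteins to form AP-1, which binds the TGANTCA and TGANNTCA motifs, whereas JUN proteins can also pair with each other. FOS and FOSB carry strong activation domains that FOSL1 and FOSL2 lack, and JUNB and JUND often act more weakly than JUN. EGR proteins are zinc finger factors that bind GCGNGGGCG, and NAB1 and NAB2 are their co-repressors. In activated mast cells, AP-1 and EGR factors are known to take part in the transcription of cytokine genes.

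Total expected counts ran from 29225900 to 43181402 per library. The libraries of a group differed by more than sampling noise, with a common biological coefficient of variation of 0.044. The label of 1 library each of HMC-1.2, clone 1 and clone 2 says that it was resent. All 14 mast cell markers listed were tested, and 6 fell and 2 rose in each of the 3 other groups against HMC-1.2. FCER1G, the shared gamma chain of Fc receptors, was at 1.14 to 2.43 FPKM in HMC-1.2, at 92.0 to 95.8 in HMC-1.1, at 91.1 to 97.8 in clone 1 and at 9.81 to 10.7 in clone 2 (log2 fold change 5.76 and 2.55 in the clones). The tryptase TPSAB1, whose reads can be divided with the near-identical TPSB2, was at 573 to 607 FPKM in HMC-1.2 and at 27.6 to 45.2 in the other groups (-3.83 and -4.41), and LTC4S, which makes leukotriene C4, was also lower in both clones (-2.74 and -4.36). Of the other markers, KIT lay between 346 and 469 FPKM in every library, HDC, which makes histamine, between 814 and 1040, and the transcription factor GATA2 between 212 and 247. The IgE receptor subunit MS4A2 was near 0 (0.06 to 0.45 FPKM, lower in the clones by -1.68 and -2.07). FCER1A, another subunit, was at 0.91 to 1.27 FPKM in HMC-1.2 and 0.94 to 1.18 in clone 2. It was lower in clone 1, at 0.12 to 0.15 FPKM, and in HMC-1.1, at 0.12 to 0.17 (-2.89 and -2.83, edgeR adjusted p = 2e-06 and 2.7e-06). The part of these marker differences in the levels of the AP-1 and EGR genes was not tested. The summed level of 16 markers of other blood, epithelial and stromal cells was 7.80 to 9.27 FPKM in HMC-1.2 and 7.35 to 9.66 in HMC-1.1, with 9.51 to 10.9 and 6.25 to 7.88 in clones 1 and 2. Of these 16 markers, MPO was at 0 in all 12 libraries and 12 were too low to be tested. Of the 4 tested, the globin HBB was higher in both clones (2.34 and 2.12), and the collagen COL1A1, at most 0.31 FPKM, was lower in both (-1.0 and -1.11). In bulk RNA, fewer cells with a transcript and less of it per cell cannot be told apart.

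By mean CPM, which are counts scaled by library size, HMC-1.2, the subline with both KIT variants, had the highest level of 7 of the 10 genes, FOS, FOSB, FOSL2, JUNB, JUND, EGR1 and EGR3. The share of all genes that were highest in HMC-1.2 was not computed, so nothing particular to these genes is read from that count. A gene is called changed here when its edgeR adjusted p is under 0.05 and its fold change is more than 1.5. In clone 1, 6 of the 10 genes fell against HMC-1.2 (FOS, FOSB, FOSL2, JUND, EGR1 and EGR3) and 0 rose, where 8.18% of all 15944 genes tested fell and 11.8% rose. In clone 2, 3 of the 10 genes fell (FOS, FOSB and EGR3) and 0 rose, where 8.51% of all genes fell and 7.98% rose. In HMC-1.1, 4 of the 10 genes fell against HMC-1.2 (FOS, FOSL2, EGR1 and EGR3) and 0 rose, where 7.52% of all genes fell and 10.1% rose. The median log2 fold change of the 10 genes was -0.95 and -0.32 in clones 1 and 2 and -0.55 in HMC-1.1, and that of all genes was 0.01, 0.00 and 0.01. By the adjusted p alone, without the fold limit, 7 of the 10 genes were lower than in HMC-1.2 in each of these comparisons. Of these, FOSL2 in clone 2 and FOSB in HMC-1.1 did not pass under several alternatives, given with each gene. All genes lower by that rule made up 29.3% and 23.8% in clones 1 and 2 and 26.5% in HMC-1.1. These comparisons share the HMC-1.2 libraries, so they are not independent of each other.

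**Figure D1:**
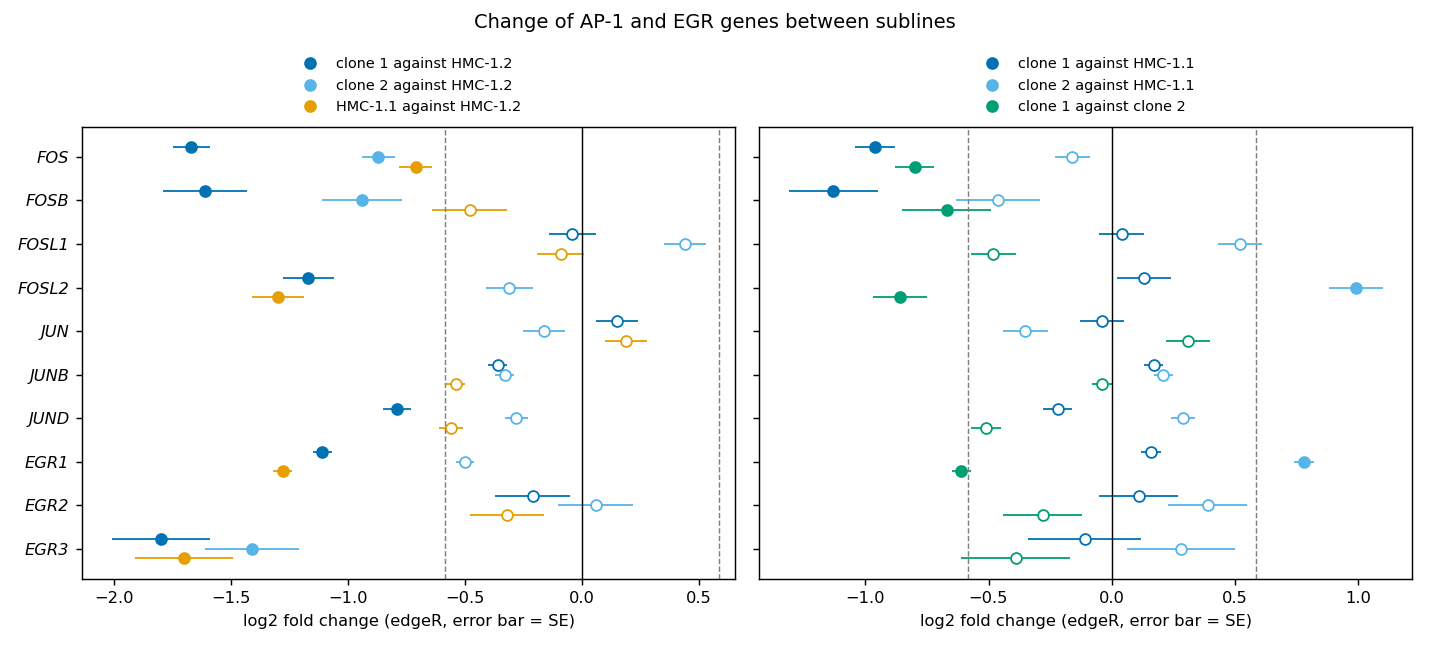
Log2 fold change (x axis) of each AP-1 and EGR gene (y axis) in the 6 comparisons, as edgeR estimates with their SE, with filled points for genes called changed and dashed lines at a 1.5-fold change. In the left panel FOS, FOSB and EGR3 lie left of the dashed line in both HMC-1.3 clones (FOS at -1.67 and -0.87), whereas FOSL1, JUN, JUNB and EGR2 have no filled point there.

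FOS, whose product is the classic partner of JUN in AP-1, lies at chr14:75278826-75282230 on the plus strand of GRCh38. FOS stood at 20.4, 24.7 and 25.1 FPKM in the HMC-1.2 libraries, at 12.8, 15.1 and 15.6 in HMC-1.1, at 7.62, 8.10 and 6.88 in clone 1 and at 12.6, 12.9 and 14.4 in clone 2. Clone 1 was lowest and HMC-1.2 highest without overlap, and the libraries of HMC-1.1 and clone 2 overlapped. FOS was 3.18-fold lower in clone 1 than in HMC-1.2 (log2 fold change -1.67, SE 0.08, edgeR adjusted p = 7.8e-12). The fall was 1.83-fold in clone 2 (-0.87, SE 0.07, edgeR adjusted p = 2.2e-08) and 1.64-fold in HMC-1.1 (-0.71, SE 0.07, edgeR adjusted p = 2.5e-07). HMC-1.1 and clone 2, neighbours in the order of levels, did not differ at the threshold (edgeR adjusted p = 0.11).

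FOSB, an activating FOS paralog known from repeated stimulation, lies at chr19:45467995-45475179 on the plus strand and overlaps ERCC1 on the other strand. FOSB stood at 5.33, 6.59 and 7.79 FPKM in HMC-1.2, at 3.73, 5.95 and 5.28 in HMC-1.1, at 2.35, 2.29 and 1.87 in clone 1 and at 2.93, 4.23 and 3.58 in clone 2. Every clone 1 library was below all others, while the other groups lay closer together, and HMC-1.1 overlapped both HMC-1.2 and clone 2. FOSB fell 3.06-fold in clone 1 (log2 fold change -1.61, SE 0.18, edgeR adjusted p = 6.2e-07) and 1.92-fold in clone 2 (-0.94, SE 0.17, edgeR adjusted p = 0.00017) against HMC-1.2. In HMC-1.1 its log2 fold change was -0.48 (SE 0.16, edgeR adjusted p = 0.019), short of 1.5-fold. That value became a call at -0.61 without HMC-1.1 replicate 2, at -0.64 without HMC-1.2 replicate 1 and at -0.61 with a term for the resent libraries. It did not pass the adjusted p without HMC-1.1 replicate 1 (-0.29, edgeR adjusted p = 0.1), without HMC-1.2 replicate 2 or 3 (edgeR adjusted p = 0.063 and 0.096), in DESeq2 (adjusted p = 0.059) or in limma on log2(FPKM + 1) and log2(FPKM + 0.1) (adjusted p = 0.11 and 0.12). The kit is stranded, but whether the counting used the strand is not given in the sources used here, so reads of ERCC1 could be part of the FOSB count. A count that is not a whole number means that RSEM, the counting tool, divided reads, and the FOSB count shows this in 1 of 12 libraries. The promoters of FOS and FOSB are shown because these FOS family members fell in both HMC-1.3 clones. RefSeq (GRCh38.p14) places them at chr14:75278678-75278827 and chr19:45467846-45467995, both on the plus strand, and the 150 bases before the start site are printed with the TATAAA box in capitals. It begins 33 bases before the start in FOS and 30 in FOSB, and 11.5% of the 35116 promoters of the table hold it on either strand.
FOS: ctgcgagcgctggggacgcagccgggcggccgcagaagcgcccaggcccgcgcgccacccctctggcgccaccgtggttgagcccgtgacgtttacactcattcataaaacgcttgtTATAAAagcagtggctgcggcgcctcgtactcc
FOSB: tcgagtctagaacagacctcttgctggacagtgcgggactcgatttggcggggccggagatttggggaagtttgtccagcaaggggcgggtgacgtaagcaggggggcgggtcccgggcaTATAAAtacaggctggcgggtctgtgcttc

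FOSL1, also called FRA1, lies at chr11:65892049-65900573 on the minus strand. FOSL1 stood at 5.45, 5.83 and 5.59 FPKM in HMC-1.2, at 4.83, 5.45 and 6.10 in HMC-1.1, at 6.03, 6.31 and 5.13 in clone 1 and at 7.87, 7.65 and 8.29 in clone 2. Clone 2 lay above every other library, and the other groups overlapped. Against HMC-1.2 its log2 fold change was 0.44 in clone 2 (SE 0.09, edgeR adjusted p = 0.00084), short of 1.5-fold, -0.04 in clone 1 (edgeR adjusted p = 0.71) and -0.09 in HMC-1.1 (edgeR adjusted p = 0.46). FOSL1 was the FOS family member that was not called lower in any of the 3 comparisons with HMC-1.2.

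FOSL2, also called FRA2, lies at chr2:28392448-28417317 on the plus strand, where FOSL2-AS1 overlaps it on the other strand and the gene ENSG00000270640 on the same strand. Reads could be shared, but the FOSL2 count is not a whole number in 0 of 12 libraries, so no division of reads by RSEM shows in it. FOSL2 stood at 1.83, 2.08 and 2.06 FPKM in HMC-1.2 and at 1.68, 1.36 and 2.15 in clone 2. Its level was 0.85, 1.08 and 0.86 FPKM in HMC-1.1 and 0.95, 0.97 and 0.92 in clone 1. HMC-1.1 and clone 1 lay together near 1 FPKM, below every library of HMC-1.2 and clone 2, which overlapped. FOSL2 fell 2.25-fold in clone 1 (log2 fold change -1.17, SE 0.11, edgeR adjusted p = 6e-08) and 2.47-fold in HMC-1.1 (-1.3, SE 0.11, edgeR adjusted p = 2.2e-08). In clone 2 it was -0.31 (SE 0.10, edgeR adjusted p = 0.016), short of 1.5-fold. The clone 2 value did not pass the adjusted p in limma on log2(FPKM + 1) and log2(FPKM + 0.1) (adjusted p = 0.29 and 0.35), without HMC-1.2 replicate 2 or 3 (edgeR adjusted p = 0.053 and 0.062) or without clone 2 replicate 2 (-0.20, edgeR adjusted p = 0.11). On the log2(FPKM + 1) scale, which compresses levels near 1 FPKM, the values were -0.62 in clone 1 and -0.63 in HMC-1.1, and both remained calls.

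**Figure D2:**
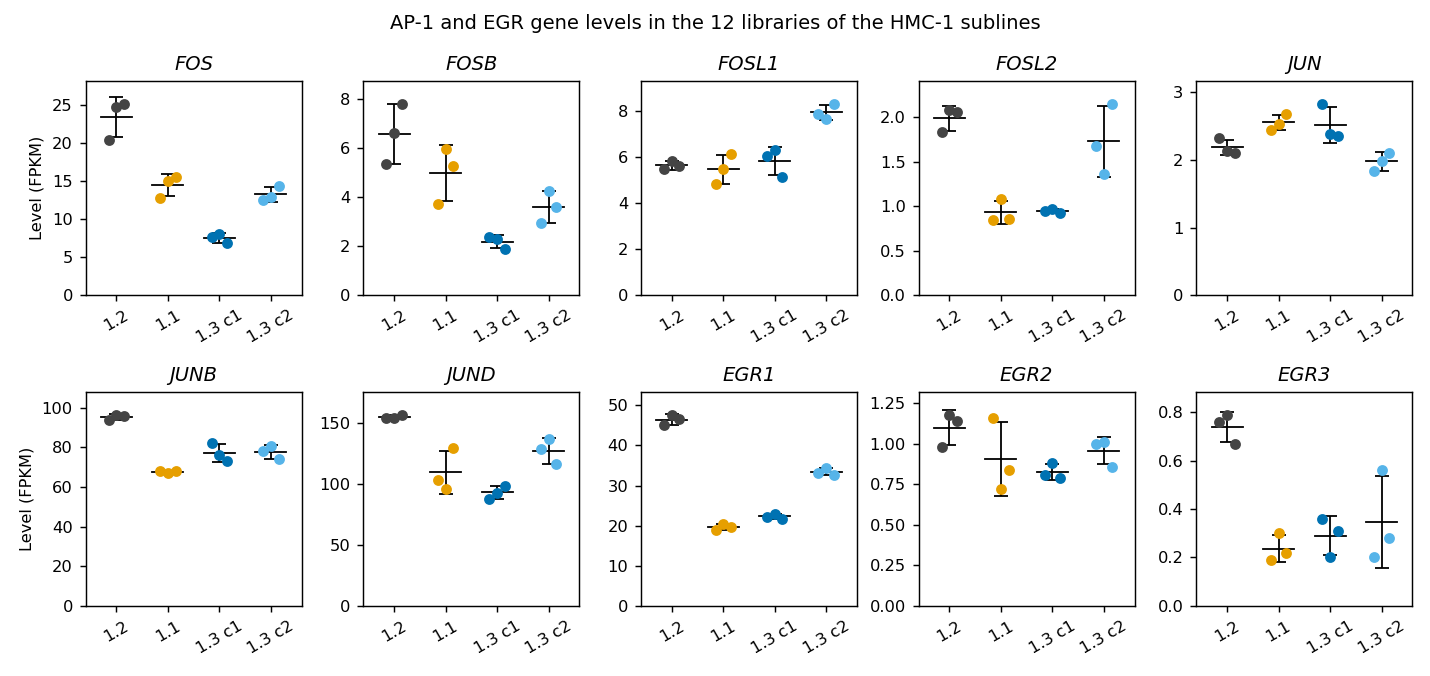
Level in FPKM (y axis, from 0) of each AP-1 and EGR gene in HMC-1.2, HMC-1.1 and HMC-1.3 clones 1 and 2 (c1, c2), 1 point per library, with the mean as a line and the SD of 3 libraries as a bar. FOS is lowest in clone 1 (6.88 to 8.10) and highest in HMC-1.2 (20.4 to 25.1), and FOSL1 is highest in clone 2.

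The summed level of the FOS family was 37.6 ± 4.02 FPKM in HMC-1.2 (SD, n = 3 here and below), 25.8 ± 3.17 in HMC-1.1, and 16.5 ± 1.49 and 26.5 ± 1.71 in clones 1 and 2. FOS made up 62.3% ± 0.657 of that sum in HMC-1.2 and 56.1% ± 1.46 in HMC-1.1, with 45.8% ± 0.768 and 50% ± 0.653 in clones 1 and 2. The share of FOSL1 was 15% ± 1.37 in HMC-1.2 and 21.2% ± 1.19 in HMC-1.1, with 35.3% ± 0.570 and 30% ± 1.27 in clones 1 and 2. The shares of FOS and of FOSL1 did not overlap between any pair of groups. FOSL1 transcripts were therefore a larger part of a smaller FOS family pool in both clones than in HMC-1.2. No test was run on these sums and shares, which are sums of FPKM and not of protein.

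**Figure D3:**
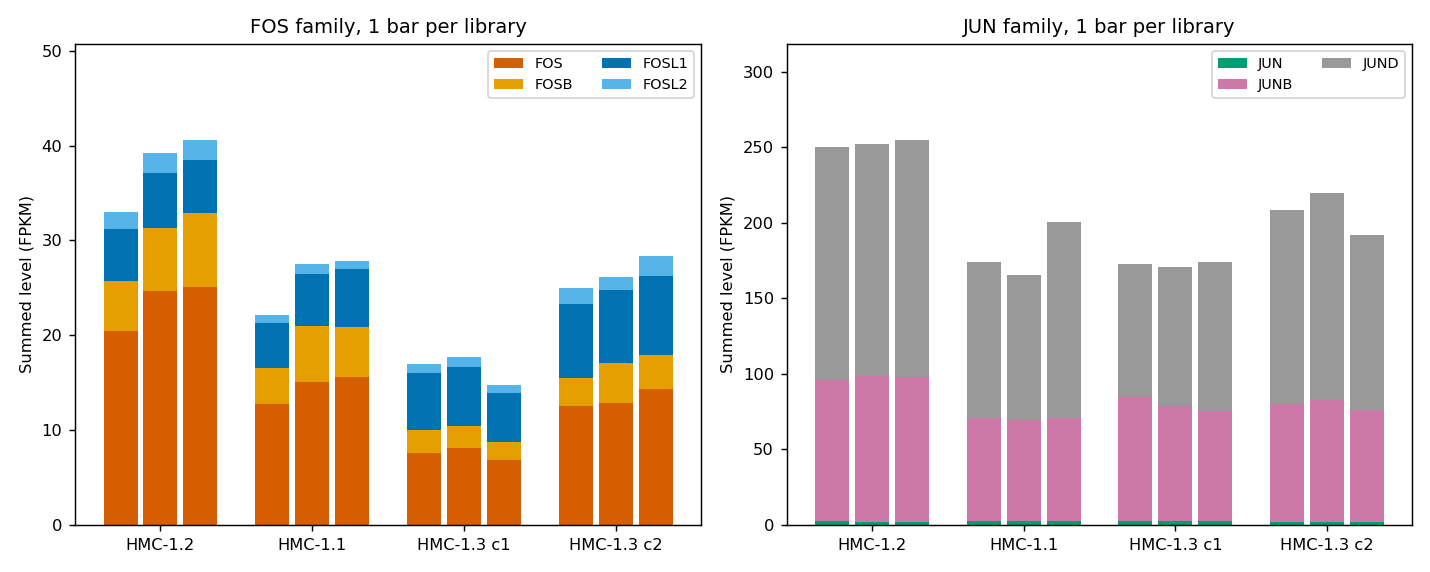
Summed FPKM (y axis, from 0) of the FOS family (left) and the JUN family (right), 1 stacked bar per library in HMC-1.2, HMC-1.1 and HMC-1.3 clones 1 and 2 (c1, c2). The FOS part of the bars is largest in HMC-1.2 (62.3% of the sum) and smallest in clone 1 (45.8%), and JUNB and JUND make up nearly all of the JUN family.

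JUN, the strongest activator of its family, lies at chr1:58776845-58784048 on the minus strand and was the least abundant JUN family member. JUN stood at 2.32, 2.14 and 2.1 FPKM in HMC-1.2, at 2.45, 2.54 and 2.68 in HMC-1.1, at 2.83, 2.38 and 2.36 in clone 1 and at 1.84, 1.99 and 2.11 in clone 2. All 12 libraries lay between 1.84 and 2.83 FPKM, with clone 2 lowest on average. Against HMC-1.2 the log2 fold change of JUN was 0.15 in clone 1 (SE 0.09, edgeR adjusted p = 0.18), -0.16 in clone 2 (SE 0.09, edgeR adjusted p = 0.16) and 0.19 in HMC-1.1 (SE 0.09, edgeR adjusted p = 0.098). None of these passed the threshold.

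JUNB, which can hold back JUN and takes part in cytokine transcription in T cells, lies at chr19:12791486-12793315 on the plus strand and overlaps HOOK2 on the other strand. JUNB stood at 93.6, 96.4 and 95.7 FPKM in HMC-1.2, at 68.0, 67.0 and 67.9 in HMC-1.1, at 82.1, 76.1 and 72.8 in clone 1 and at 78.0, 80.8 and 74.0 in clone 2. HMC-1.2 was above and HMC-1.1 below all other libraries, and the clones overlapped. JUNB was lower than in HMC-1.2 by less than 1.5-fold in each case, with a log2 fold change of -0.36 in clone 1 (SE 0.04, edgeR adjusted p = 1.1e-06), -0.33 in clone 2 (SE 0.04, edgeR adjusted p = 5.3e-06) and -0.54 in HMC-1.1 (SE 0.04, edgeR adjusted p = 1.1e-08).

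JUND, often the JUN family member of resting cells, lies at chr19:18279694-18281622 on the minus strand and had the highest level of the 10 genes. JUND stood at 153.9, 153.8 and 156.8 FPKM in HMC-1.2, at 103.3, 95.5 and 129.7 in HMC-1.1, at 88.1, 92.5 and 98.6 in clone 1 and at 128.5, 136.5 and 116.0 in clone 2. HMC-1.2 was above all others, HMC-1.1 replicate 3 stood apart from the other HMC-1.1 libraries, and clone 1 did not overlap clone 2. JUND fell 1.73-fold in clone 1 (log2 fold change -0.79, SE 0.06, edgeR adjusted p = 2e-09). It was -0.28 in clone 2 (SE 0.05, edgeR adjusted p = 0.00042) and -0.56 in HMC-1.1 (SE 0.05, edgeR adjusted p = 1.6e-07), both short of 1.5-fold, and became a call in HMC-1.1 at -0.65 without HMC-1.1 replicate 3. The JUND count is not a whole number in 12 of 12 libraries, which means that RSEM divided reads between JUND and other matches, so its level carries that uncertainty. The promoters of JUN and JUND are shown because both hold an AP-1 type motif while only JUND fell, in clone 1. RefSeq (GRCh38.p14) places the windows at chr1:58784048-58784197 for JUN, 150 bases, and chr19:18281623-18281872 for JUND, 250 bases, both on the minus strand and ending at the base before the start. Capitals mark TGANNTCA, as TGACATCA 67 bases before the start in JUN, and as TGACGTCA 200 and TGAGCTCA 54 bases before it in JUND. Of all promoters, 11.5% hold TGANNTCA and 7.71% hold TGANTCA on either strand.
JUN: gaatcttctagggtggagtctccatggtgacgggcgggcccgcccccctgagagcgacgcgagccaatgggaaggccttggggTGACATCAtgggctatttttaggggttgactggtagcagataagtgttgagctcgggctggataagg
JUND: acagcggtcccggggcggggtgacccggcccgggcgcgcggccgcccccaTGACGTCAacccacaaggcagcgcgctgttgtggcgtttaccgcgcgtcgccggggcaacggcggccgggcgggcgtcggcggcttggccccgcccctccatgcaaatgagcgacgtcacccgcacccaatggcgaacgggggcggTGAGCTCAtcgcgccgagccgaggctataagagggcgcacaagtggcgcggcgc

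The summed level of the JUN family was 252 ± 2.43 FPKM in HMC-1.2 and 180 ± 18.3 in HMC-1.1, with 173 ± 1.43 and 207 ± 13.7 in clones 1 and 2. JUN was 0.867% ± 0.0546 of that sum in HMC-1.2 and 1.43% ± 0.101 in HMC-1.1, with 1.46% ± 0.152 and 0.963% ± 0.118 in clones 1 and 2. The ratio of JUN family to FOS family transcripts was 6.76 ± 0.702 in HMC-1.2 and 7.01 ± 0.934 in HMC-1.1, with 10.5 ± 1.07 and 7.83 ± 0.919 in clones 1 and 2. In the clone 1 libraries it ran from 9.68 to 11.7, above every other library, whose ratios ran from 6.00 to 8.40. No test was run on this ratio.

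EGR1 made up 94.5% to 96.3% of the EGR family in each group and lies at chr5:138465479-138469303 on the plus strand. It is the EGR family member that nearly all mitogens induce. EGR1 stood at 45.1, 47.7 and 46.5 FPKM in HMC-1.2, at 19.0, 20.5 and 19.6 in HMC-1.1, at 22.2, 22.9 and 21.7 in clone 1 and at 33.2, 34.4 and 32.7 in clone 2. None of the 4 groups overlapped another, in the order HMC-1.2, clone 2, clone 1 and HMC-1.1, and each neighbour in that order differed at the adjusted p. EGR1 fell 2.16-fold in clone 1 (log2 fold change -1.11, SE 0.04, edgeR adjusted p = 1.4e-13) and 2.42-fold in HMC-1.1 (-1.28, SE 0.04, edgeR adjusted p = 2.8e-14). In clone 2 it was 1.41-fold lower (-0.50, SE 0.04, edgeR adjusted p = 5.2e-09), short of 1.5-fold.

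EGR2, which is best known from myelinating Schwann cells and from T cells, lies at chr10:62811996-62819167 on the minus strand, where ENSG00000289487 overlaps it on the same strand. EGR2 stood at 0.98, 1.18 and 1.14 FPKM in HMC-1.2, at 1.16, 0.72 and 0.84 in HMC-1.1, at 0.81, 0.88 and 0.79 in clone 1 and at 1.00, 1.01 and 0.86 in clone 2. The clone 1 libraries were below those of HMC-1.2, while HMC-1.1 and clone 2 overlapped HMC-1.2. EGR2 counts ran from 63 to 99 per library. Its log2 fold change against HMC-1.2 was -0.21 in clone 1 (SE 0.16, edgeR adjusted p = 0.27), 0.06 in clone 2 (SE 0.16, edgeR adjusted p = 0.77) and -0.32 in HMC-1.1 (SE 0.16, edgeR adjusted p = 0.1). In FPKM the ratio of the means went the other way in clone 2, at -0.20 on the log2 scale. The promoters of EGR1 and EGR2 are shown because both hold a CArG box, the site of SRF, which 1.29% of all promoters hold. The 150 bases before the start are chr5:138465329-138465478 on the plus strand for EGR1 and chr10:62816367-62816516 on the minus strand for 1 of the 3 start sites of EGR2 in RefSeq (GRCh38.p14). The EGR2 window is in an intron of longer EGR2 transcripts. Capitals mark the CArG boxes, which begin 105 and 83 bases before the start in EGR1 and 71 bases before it in EGR2. EGR1 also holds GCGCGGGCG, a match to the EGR motif GCGNGGGCG that 9.43% of promoters hold, 198 bases before its start and outside the printed stretch.
EGR1: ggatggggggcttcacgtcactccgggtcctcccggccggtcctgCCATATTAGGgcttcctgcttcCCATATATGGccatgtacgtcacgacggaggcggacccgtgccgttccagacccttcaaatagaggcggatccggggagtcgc
EGR2: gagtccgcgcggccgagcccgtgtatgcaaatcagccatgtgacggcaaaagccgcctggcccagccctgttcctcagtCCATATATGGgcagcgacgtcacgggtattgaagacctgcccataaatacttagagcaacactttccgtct

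RefSeq promoters were found for 8 of the 10 genes, and both strands were searched for the 5 motifs over 250 bases before to 50 after each of their 10 start sites. No match overlapped another. JUNB holds TATAAA 31 bases before its start, and FOSL2 holds TGACTCA 4 bases after it. In FOS, TATAAA was the only motif of the 5 with a match, so no CArG box was found there. Bases further upstream of FOS were not searched. EGR2 also holds GCGNGGGCG, on the other strand and 8 bases after another of its start sites. A match is a stretch of letters and not a measured binding site, and no binding was measured in these cells.

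EGR3, an EGR paralog of lymphocyte activation, lies at 22687659 to 22693480 on the minus strand of chromosome 8, and a non-coding gene overlaps it on the other strand. EGR3 stood at 0.76, 0.79 and 0.67 FPKM in HMC-1.2, at 0.19, 0.30 and 0.22 in HMC-1.1, at 0.36, 0.20 and 0.31 in clone 1 and at 0.20, 0.56 and 0.28 in clone 2. HMC-1.2 was above all other libraries, and those groups overlapped each other. EGR3 fell 3.49-fold in clone 1 (log2 fold change -1.80, SE 0.21, edgeR adjusted p = 1.1e-06), 2.66-fold in clone 2 (-1.41, SE 0.20, edgeR adjusted p = 1.6e-05) and 3.24-fold in HMC-1.1 (-1.70, SE 0.21, edgeR adjusted p = 2.5e-06). These values rest on 81 to 101 counts in each HMC-1.2 library and 26 to 50 in each of the others. On the log2(FPKM + 1) scale, which compresses levels under 1 FPKM, they were -0.43, -0.38 and -0.49 and not calls. The summed EGR family was 48.3 ± 1.41 FPKM in HMC-1.2 and 20.8 ± 0.605 in HMC-1.1, with 23.4 ± 0.605 and 34.7 ± 1.14 in clones 1 and 2.

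The HMC-1.3 clones also differed from each other. FOS, FOSB, FOSL2 and EGR1 were lower in clone 1 than in clone 2, 4 of the 10 genes, and 0 were higher, where 4.25% of all genes were lower and 8.38% higher. FOSL2 was 1.81-fold lower in clone 1 (log2 fold change -0.86, SE 0.11, edgeR adjusted p = 4.4e-06), FOS 1.74-fold (-0.80, SE 0.08, edgeR adjusted p = 3.1e-07) and FOSB 1.59-fold (-0.67, SE 0.18, edgeR adjusted p = 0.0062). EGR1 was 1.53-fold lower (-0.61, SE 0.04, edgeR adjusted p = 9.5e-10), just past the limit of 1.5-fold. FOSB was no longer a call without clone 1 replicate 3, at -0.58. On the log2(FPKM + 1) scale FOS alone remained a call, and FOSB was -0.52, FOSL2 -0.48 and EGR1 -0.56.

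Set against HMC-1.1, 2 of the 10 genes were lower in clone 1, FOS and FOSB, and 0 were higher, where 0.339% of all genes were lower and 0.671% higher. FOS was 1.94-fold lower (log2 fold change -0.96, SE 0.08, edgeR adjusted p = 5.8e-07) and FOSB 2.19-fold lower (-1.13, SE 0.18, edgeR adjusted p = 0.00041). FOSL2 (0.13, edgeR adjusted p = 0.47) and EGR3 (-0.11, edgeR adjusted p = 0.8) did not pass the threshold between clone 1 and HMC-1.1. In clone 2, 2 of the 10 genes were higher than in HMC-1.1, FOSL2 and EGR1, and 0 were lower, where 3.04% of all genes were higher and 5.15% lower. FOSL2 was 1.99-fold higher (0.99, SE 0.11, edgeR adjusted p = 1.8e-06) and EGR1 1.71-fold higher (0.78, SE 0.04, edgeR adjusted p = 8.3e-11). On the log2(FPKM + 1) scale FOSL2 was 0.49 and not a call. Leaving out HMC-1.1 replicate 1 made FOSB a call in clone 2 at -0.65, and leaving out HMC-1.1 replicate 3 made FOSL1 a call at 0.61, from -0.46 and 0.52 with all libraries.

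Genes of heat and handling stress also differed between the groups. These 7 genes cover the heat shock proteins and DDIT3, a transcription factor of the unfolded protein response, and their summed level was 779 to 790 FPKM in HMC-1.2 and 619 to 640 in HMC-1.1, with 542 to 578 and 744 to 786 in clones 1 and 2. HSPA1A stood at 93.2 to 97.0 FPKM in HMC-1.2 and 53.4 to 58.8 in HMC-1.1, with 29.1 to 29.2 and 91.6 to 95.4 in clones 1 and 2. Its reads can be divided with the near-identical HSPA1B, which stood at 31.9 to 35.3, 16.3 to 19.6, 8.21 to 9.18 and 27.6 to 28.8 FPKM in the same order. Against HMC-1.2, 5 of the 7 fell in clone 1 (HSPH1, DNAJB1, HSPA6, HSPA1B and HSPA1A) and 1 rose (DDIT3), whereas 1 fell in clone 2 (HSPA6, at -1.3) and 0 rose. In HMC-1.1, 4 fell (DNAJB1, HSPA6, HSPA1B and HSPA1A) and 1 rose (DDIT3). DDIT3 was at 54.4 to 60.3 FPKM in clone 1 and at 14.3 to 16.7 in HMC-1.2. The part of heat or handling stress in the levels of the AP-1 and EGR genes was not tested.

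Of 23 other immediate early genes listed, 20 were tested, and against HMC-1.2 5 fell in clone 1 (GADD45B, DUSP1, EGR4, KLF4 and DUSP2) and 2 rose (PPP1R15A and KLF2), whereas 1 fell in clone 2 (KLF4) and 0 rose. In HMC-1.1, 4 fell (GADD45B, DUSP1, EGR4 and KLF4) and 1 rose (KLF2) against HMC-1.2. Among all genes, 8.18% fell and 11.8% rose in clone 1, and 8.51% fell and 7.98% rose in clone 2. In HMC-1.1, 7.52% of all genes fell and 10.1% rose. These are the shares to set beside the counts of the other lists too. The median log2 fold change of the list was -0.01 in clone 1 and -0.23 in clone 2. KLF4, a zinc finger factor, was at 0.56 ± 0.0954 FPKM in HMC-1.2, and 0.253 ± 0.0493 and 0.293 ± 0.0252 in clones 1 and 2 (log2 fold change -1.01 and -0.95, edgeR adjusted p = 0.0017 and 0.0031). MYC was at 100 to 102 FPKM in HMC-1.2, and 123 to 127 and 134 to 139 in clones 1 and 2, a difference short of 1.5-fold. MYC was also higher in HMC-1.1, at 144 to 152 FPKM (0.50, short of 1.5-fold). CCN1, CCN2 and ARC were too low to be tested.

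**Figure D4:**
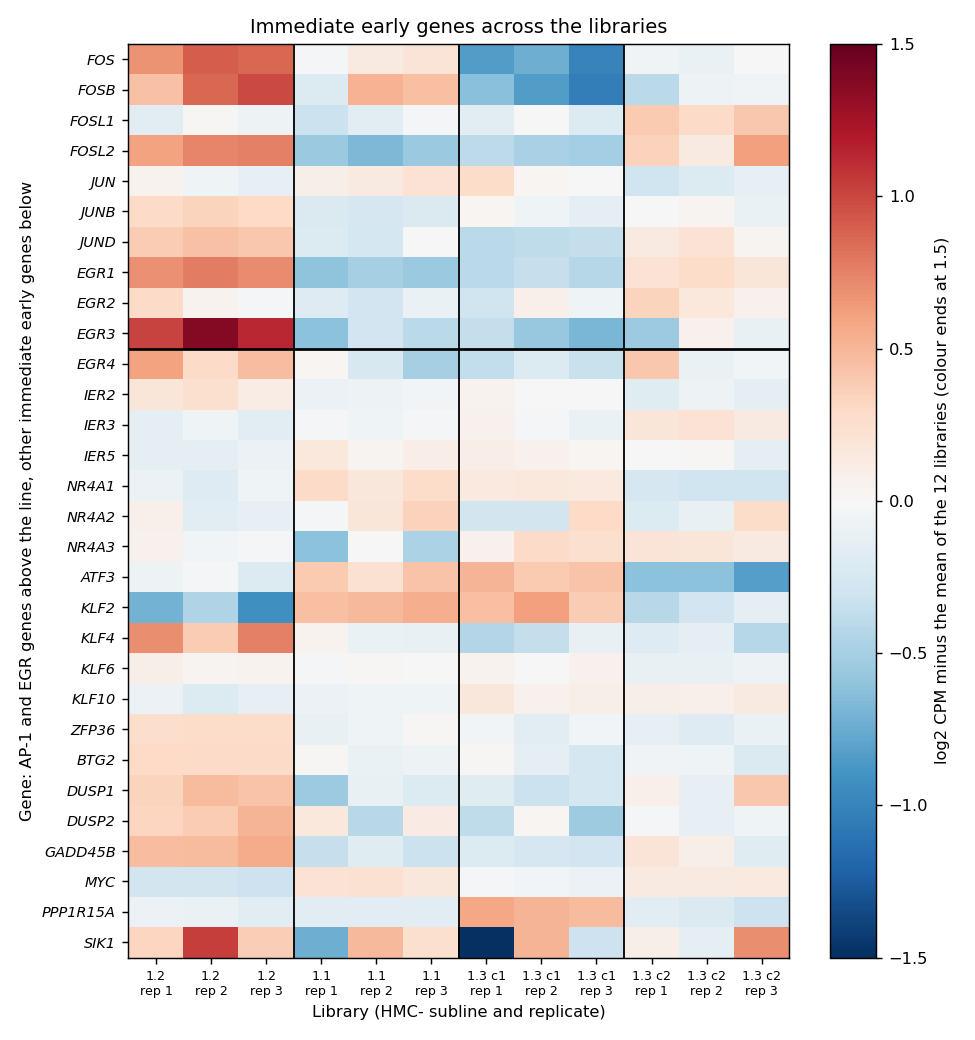
Colour map of log2 CPM minus the gene's mean over the 12 libraries (x axis, 3 per subline) for the 10 AP-1 and EGR genes above the line and 20 other immediate early genes below it, with the colour scale ending at 1.5 in both directions. FOS and FOSB are blue in clone 1 (FOS between -1.0 and -0.73) and red in HMC-1.2, and several genes below the line, such as PPP1R15A, show a different pattern.

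Of SRF, its cofactors ELK1, ELK3, ELK4, MRTFA and MRTFB, and CREB1, 0 of 7 changed in either clone against HMC-1.2. SRF was at 30.5 to 31.3 FPKM in HMC-1.2, at 24.1 to 25.6 in clone 1 (log2 fold change -0.36, edgeR adjusted p = 4.5e-08) and at 31.8 to 32.6 in clone 2 (0.04, edgeR adjusted p = 0.38). Of 10 MAP kinase genes, MAPK9, which encodes the JUN kinase JNK2, was the 1 that changed, and it fell in both clones, from 18.4 ± 1.83 FPKM to 9.52 ± 0.285 and 9.22 ± 0.509 (-0.96 and -0.87, edgeR adjusted p = 3e-11 and 1.1e-10). MAPK9 was also the 1 lower in HMC-1.1, at 8.68 ± 1.07 FPKM (-0.95, edgeR adjusted p = 4.1e-11). These are transcript levels, and the phosphorylation that activates kinases was not measured in these libraries. Of the EGR co-repressors, NAB2, itself an EGR target, fell from 26.8 ± 0.598 FPKM to 16.2 ± 0.628 and 15.6 ± 0.471 in clones 1 and 2 (-0.76 and -0.79, edgeR adjusted p = 3.3e-10 and 1.9e-10). NAB1 did not change by 1.5-fold.

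Among 13 tested genes of ERK output, the direction was mixed, with 2 higher and 3 lower in clone 1 and 3 higher and 3 lower in clone 2, and a median log2 fold change of -0.14 and 0.01. In HMC-1.1, 1 was higher (DUSP4) and 3 lower (CCND1, SPRY2 and DUSP7) than in HMC-1.2, with a median of -0.07. DUSP4, a nuclear phosphatase of ERK, rose to 137 ± 3.83 and 134 ± 0.82 FPKM in clones 1 and 2 from 20.1 ± 0.51 in HMC-1.2 (log2 fold change 2.72 in both, edgeR adjusted p = 8.1e-20 and 6.5e-20). CCND1, cyclin D1, fell from 10.3 ± 0.796 FPKM to 1.34 ± 0.266 and 4.62 ± 0.527 (-3.03 and -1.07, edgeR adjusted p = 3.1e-14 and 3.7e-09). DUSP7, an ERK phosphatase of the cytoplasm, fell by less (-0.85 and -0.65, edgeR adjusted p = 1.5e-10 and 4.8e-09). SPRED3, an inhibitor of the RAS pathway, rose from 0.363 ± 0.0351 FPKM to 0.673 ± 0.364 and 0.773 ± 0.156 (0.60 and 0.74, edgeR adjusted p = 0.04 and 0.015). DUSP6, a standard readout of ERK activity, was at 168 to 169 FPKM in HMC-1.2, and 148 to 160 and 151 to 157 in clones 1 and 2, short of 1.5-fold.

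Among 14 tested partners of AP-1 outside the FOS and JUN families, 3 fell and 1 rose in clone 1, and 3 fell and 0 rose in clone 2. In HMC-1.1, 3 fell (BATF3, MAF and MAFK) and 1 rose (JDP2) against HMC-1.2. Among all genes, 8.18% fell and 11.8% rose in clone 1, 8.51% and 7.98% in clone 2, and 7.52% and 10.1% in HMC-1.1. With so few genes nothing particular to the partners is read from these counts. The median log2 fold change of the partners was 0.02 and -0.29 in clones 1 and 2, and 0.03 in HMC-1.1. BATF3, which pairs with JUN proteins and lacks an activation domain, fell from 7.40 ± 0.853 FPKM to 4.92 ± 0.749 and 2.1 ± 0.706 in clones 1 and 2 (log2 fold change -0.76 and -1.82, edgeR adjusted p = 0.00039 and 6.9e-08). MAF, a large MAF protein, fell from 5.09 ± 0.295 FPKM to 2.21 ± 0.183 and 2.97 ± 0.217 (-1.16 and -0.78, edgeR adjusted p = 1.2e-09 and 1.9e-07). In HMC-1.1, BATF3 was at 3.33 ± 0.261 FPKM and MAF at 2.2 ± 0.31. JDP2, which pairs with JUN and represses, rose in clone 1 (1.61, edgeR adjusted p = 1.3e-06) and fell in clone 2 (-1.3, edgeR adjusted p = 0.00028).

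Of 20 textbook AP-1 target genes, 12 were expressed highly enough to be tested. The list was chosen with earlier results of these data known. It holds CD44, PLAUR and CCL2, which the study reports as lower in HMC-1.3, so its counts are not an independent test. Against HMC-1.2, 8 of the 12 fell and 0 rose in clone 1, with a median log2 fold change of -1.35, and 7 fell and 1 rose in clone 2 (SPP1), with a median of -0.81, where the median of all genes was 0.01 and 0.00. In HMC-1.1, 9 of the 12 fell against HMC-1.2 and 0 rose, with a median of -1.65, where that of all genes was 0.01. The falls were thus not particular to the edited clones. CCND1, among those that fell, is in both this list and the one of ERK output. TNF, an inflammatory cytokine, was at 85.4 to 88.9 FPKM in HMC-1.2, and at 0.66 to 0.99, 0.02 to 0.34 and 1.13 to 1.24 in clone 1, clone 2 and HMC-1.1. PLAU, the urokinase plasminogen activator, was at 14.3 to 15.5 FPKM in HMC-1.2, and 0.30 to 0.68 and 0.57 to 0.99 in clones 1 and 2 (-5.01 and -4.22, edgeR adjusted p = 6.7e-14 and 1.9e-13). VIM, the intermediate filament vimentin, was at 234 to 248 FPKM in HMC-1.2, and 25.9 to 27.0 and 59.8 to 66.4 in clones 1 and 2 (-3.25 and -1.99, edgeR adjusted p = 3e-19 and 6.5e-17). CCL2, a chemokine for monocytes, was at 159 to 174 FPKM in HMC-1.2, and 23.1 to 24.9 and 55.1 to 67.2 in clones 1 and 2 (-2.82 and -1.47, edgeR adjusted p = 2.8e-15 and 4.1e-12). In HMC-1.1, PLAU was at 0.19 to 0.45 FPKM, VIM at 23.0 to 24.6 and CCL2 at 29.9 to 33.4. TIMP1, an inhibitor of matrix proteases, was higher in clone 2 by 0.53 and HMOX1, heme oxygenase, higher in the clones by 0.41 and 0.43, all short of 1.5-fold. AP-1 binding at these genes was not measured, so no change here is tied to a FOS or JUN protein.

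The genes with the profile most like that of a member over the 12 libraries were found among 13116 genes by the root mean square difference of centred log2 CPM. For FOS these were FOSB (0.206), the fatty acid desaturase FADS2 (0.214) and the LDL receptor family member LRP4 (0.226), where the median over all genes was 0.623. For EGR1 they were the cytoplasmic linker CLIP2 (0.0746), the transporter MFSD12 (0.0806) and the docking protein DOK2 (0.0977), against a median of 0.535. DOK2 stood at 36.3 FPKM on average in HMC-1.2 and 13.9 in HMC-1.1, with 15.3 and 22.7 in clones 1 and 2, the same order of groups as EGR1. For FOSL1 they were ANKRD29 (0.0878), PQLC1 (0.0919) and AMH (0.0965), each of them highest in clone 2, against a median of 0.28. For JUN, which varied by 0.16 about its own mean, they were the histone methyltransferase SETDB1 (0.0721), CNST (0.0737) and ZNF629 (0.0753), against a median of 0.232. All these genes were picked for their likeness to a member. A like order of groups therefore follows from the choice and is not a separate result.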

How the data were processed

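Polyadenylated RNA of 12 cultures, 3 for each subline or clone, was sequenced as read pairs with a stranded kit. Per the labels and the methods of the study, the authors used cutadapt 2.10 for trimming, STAR 2.5.3 for alignment to hg38, Picard for duplicates and RSEM 1.3.0 for counting. Whether duplicates were removed and whether counting used the strand are not given in the sources used here. The deposited expected counts are RSEM estimates, not normalized, and 7.39% of them are not whole. The deposited FPKM values are scaled for transcript length and sequencing depth, and were used for levels between genes.

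Expected counts were rounded and tested with edgeR 4.0.16 (R 4.3.3), by the quasi-likelihood test with TMM factors (0.974 to 1.024) after filterByExpr (15944 genes), with all 4 groups fitted together and Benjamini-Hochberg adjustment over all genes for each comparison. A call needed an adjusted p under 0.05 and a fold over 1.5. Standard errors and adjusted p-values in the text are from this fit. Log2 CPM values used a prior count of 3. The steps were tested on simulated counts. Alternatives were DESeq2 1.42.0, limma 3.58.1 on log2(FPKM + 1) and log2(FPKM + 0.1), no filter on low counts, only the groups compared, a replicate block, a term for resent libraries, and leaving out each library.

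Groups and replicate numbers came from the labels. Gene positions are those of Gencode 44 and promoters those of RefSeq. Symbols of the lists were matched also through gene identifiers where the files use older names, as for CCN1, CCN2, MRTFA and MRTFB. The 10 genes and the gene lists were chosen with earlier results of these data known. All 10 were named. Of each list, up to 4 genes were named that changed in the same direction in both clones, by the size of their change, with the 3 most similar profiles for FOS, JUN, FOSL1 and EGR1 among genes of 1 CPM or more on average. Other genes of the lists were named after their values were seen. The reads and the KIT genotype of the libraries were not analysed here.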

Additional observations from a re-analysis of the deposited data

Results flagged for a closer look

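The change against HMC-1.2 differed between the HMC-1.3 clones for 7 of the 10 genes, by the edgeR contrast of clone 1 with clone 2, which is the difference between those changes. This count uses the adjusted p alone, with 6 genes lower and 1 higher in clone 1. By that rule 24.7% of all genes were lower and 25.5% higher, so differing between the clones is common among all genes. Whether the 10 genes depart from those shares was not tested. The difference, clone 1 minus clone 2 on the log2 scale, was -0.80 for FOS, -0.67 for FOSB, -0.86 for FOSL2 and -0.61 for EGR1, all past 1.5-fold. It was -0.48 for FOSL1 (edgeR adjusted p = 0.00032), -0.51 for JUND (edgeR adjusted p = 8.5e-07) and 0.31 for JUN (edgeR adjusted p = 0.0087), all short of 1.5-fold. JUNB (-0.04), EGR2 (-0.28) and EGR3 (-0.39) did not pass the threshold. Heat shock genes differed between the same clones, with HSPA1A at 29.1 to 29.2 FPKM in clone 1 and 91.6 to 95.4 in clone 2, and their part in these differences was not tested.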

How the results depend on the processing

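Of the log2 fold changes of the 10 genes in 6 comparisons under the alternatives, 750 kept their direction and their side of the threshold, 9 were no longer calls, 6 became calls and 15 changed sign. The number of genes called with the replicate block was that of the fit without it (6, 3 and 4 against HMC-1.2 for clone 1, clone 2 and HMC-1.1, 2 and 2 for the clones against HMC-1.1, and 4 between the clones). Same-numbered libraries did not deviate together (correlations of -0.04 to 0.10 over 18 pairs), so the numbers give no pairing, and the block changed no call among the 10 genes. Leaving out single libraries gave 6 to 6, 3 to 3, 4 to 5, 2 to 2, 2 to 3 and 3 to 4 calls in the same order. On the log2(FPKM + 1) scale, which shrinks changes of genes near or under 1 FPKM, the calls were 1 for clone 2 against HMC-1.1 and 1 between the clones. On that scale the calls over all genes were 1902 in place of 3193 for clone 1, 1453 in place of 2630 for clone 2 and 1514 in place of 2803 for HMC-1.1, each against HMC-1.2. They were 61 in place of 161 for clone 1 and 566 in place of 1306 for clone 2 against HMC-1.1, and 969 in place of 2013 between the clones. For clone 1 against HMC-1.1, DESeq2 made 87 calls and the fit without clone 1 replicate 2 made 107. The share of calls lower in clone 1 than in HMC-1.1 was 33.5%, but 23.0% on the log2(FPKM + 1) scale, 43.6% without HMC-1.1 replicate 1 and 49.2% without clone 1 replicate 3. Values that changed sign were never calls. With FPKM pseudocounts of 1 and 0.1, in that order, FOSL1 was 0.04 and 0.04 in clone 1 against HMC-1.2, EGR2 -0.10 and -0.18 in clone 2 against HMC-1.2 and -0.06 and -0.10 in clone 1 against HMC-1.1, and EGR3 0.06 and 0.20 in clone 1 against HMC-1.1. Leaving out single libraries gave FOSL1 in clone 1 values of -0.12 to 0.00 against HMC-1.2 (0.00 without HMC-1.2 replicate 2 or clone 1 replicate 3) and -0.03 to 0.12 against HMC-1.1 (-0.03 without HMC-1.1 replicate 1 or clone 1 replicate 2). EGR2 in clone 2 ran from -0.01 (without clone 2 replicate 1) to 0.17 against HMC-1.2. Without clone 1 replicate 3, JUN in clone 1 against HMC-1.1 was 0.01 (range -0.13 to 0.01) and JUNB between the clones 0.00 (range -0.09 to 0.00). EGR1 between the clones was -0.58 with limma on log2(FPKM + 0.1) and not a call. No setting moved the median of all genes by more than 0.046. The cause of these changes was not tested. Depth limits EGR3 and EGR2, at 26 to 101 counts per library.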
